A study of Mus musculus with 16 samples.

Results

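Genes that make, regulate, move and dispose of cholesterol were compared across 3 types of genetically induced mouse brain tumour and normal mouse brain. The list holds 33 genes, chosen by function, and a gene counted as measured when an array probe set carried its symbol and no other. That left 30 of the 33, among 19936 genes in all: 16 synthesis enzymes, 5 regulators, 4 genes of transport inside the cell, 4 of efflux and 1 of oxidation. Acat2, Nr1h2 and Soat1 were not analysed here. The list's name includes uptake, but no measured member is a lipoprotein receptor of the cell surface, and such receptors are described from a separate list of pathway genes.

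The 16 arrays fell into 4 groups of 4. In p53-/-RBPjk-/- tumours, an Hes5::CreERT2 transgene, active in Hes5+ cells, removed floxed p53 and RBPjk, and Pdgfb was labelled wild type. In PDGF+p53-/-RBPjk-/- tumours, a PDGF-IRES-Cre retrovirus delivered PDGF-B and Cre to mice with floxed p53 and RBPjk. In PDGF+p53-/- tumours, the same retrovirus was used in mice with floxed p53, and RBPjk was labelled wild type. Control brain tissue was normal brain, labelled wild type for Pdgfb, Trp53 and Rbpj. Tumours were harvested when mice showed symptoms and were cut out under fluorescence, guided by GFP made in recombined cells, so a tumour sample can hold host brain, and ages at harvest can differ. Age, strain and the number of animals are not given in the labels, so each p-value rests on the spread among the arrays alone, part of which may be technical.

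Cholesterol in the brain is made on site, because lipoproteins of the blood hardly cross the blood-brain barrier. Synthesis runs from acetyl-CoA through mevalonate and farnesyl diphosphate to squalene, and then through lanosterol and a series of sterols to cholesterol. SREBP transcription factors, the products of Srebf1 and Srebf2, switch on these enzymes when membranes are low in sterol. SCAP escorts SREBP to the Golgi, and INSIG proteins hold it back when sterol is plentiful. Oxidised sterols activate LXR receptors (Nr1h2, Nr1h3), which raise the efflux pumps Abca1 and Abcg1 and the apolipoprotein Apoe. In the healthy brain, oligodendrocytes use much cholesterol for myelin, astrocytes supply it on Apoe particles, and neurons dispose of it through the hydroxylase Cyp46a1.

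Promoter letters played no part in choosing the list of members. The promoters of 4 genes whose levels the results turn on are shown because the CCAAT box, marked below, differs between synthesis and efflux genes. They are the synthesis enzymes called changed in at least 3 of the 6 comparisons and present in the RefSeq promoter table (build GRCm38.p6), and the efflux gene called in each tumour type. This choice was made after their values were seen. Each run is the 250 bases before the annotated start of the gene, read in the direction of the gene. Capitals mark a CCAAT box (CCAAT or its reverse ATTGG, the letters bound by NF-Y) and, in Hmgcs1, the sterol regulatory element TCACNCCAC, the consensus bound by SREBP. The windows are chr13:119690101-119690350 (plus strand) for Hmgcs1, chr1:169969206-169969455 (minus strand) for Hsd17b7, chr9:42264301-42264550 (minus strand) for Sc5d and chr4:53159896-53160145 (minus strand) for Abca1.
Hmgcs1: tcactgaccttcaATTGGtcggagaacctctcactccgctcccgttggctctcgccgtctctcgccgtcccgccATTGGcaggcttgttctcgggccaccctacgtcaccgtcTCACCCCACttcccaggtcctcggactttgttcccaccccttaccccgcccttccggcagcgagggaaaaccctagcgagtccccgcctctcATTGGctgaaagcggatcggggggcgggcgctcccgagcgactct
Hsd17b7: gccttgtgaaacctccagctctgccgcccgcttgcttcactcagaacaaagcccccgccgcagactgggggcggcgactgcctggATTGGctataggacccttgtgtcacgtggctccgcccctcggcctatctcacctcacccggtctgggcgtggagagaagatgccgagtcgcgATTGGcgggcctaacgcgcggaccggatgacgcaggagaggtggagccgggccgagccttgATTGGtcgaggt
Sc5d: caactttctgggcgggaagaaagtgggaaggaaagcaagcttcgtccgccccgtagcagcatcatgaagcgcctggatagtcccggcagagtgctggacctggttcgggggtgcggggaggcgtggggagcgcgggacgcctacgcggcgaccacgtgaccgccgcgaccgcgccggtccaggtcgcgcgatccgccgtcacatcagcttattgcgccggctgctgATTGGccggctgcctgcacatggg
Abca1: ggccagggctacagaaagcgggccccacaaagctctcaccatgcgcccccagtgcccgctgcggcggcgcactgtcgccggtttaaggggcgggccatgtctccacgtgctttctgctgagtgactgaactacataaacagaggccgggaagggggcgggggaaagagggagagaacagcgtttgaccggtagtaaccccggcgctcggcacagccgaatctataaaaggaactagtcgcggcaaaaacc

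The Hmgcs1 stretch holds 3 CCAAT boxes and 1 sterol regulatory element, the Hsd17b7 stretch 3 CCAAT boxes, the Sc5d stretch 1 and the Abca1 stretch 0. Over windows of 300 bases (250 before and 50 after the start), 27 of the 33 genes had an entry in the table. A CCAAT box on either strand stood in 13 of 14 synthesis genes and in 0 of 4 efflux genes, against 42.3% of 17492 protein-coding genes and 37.4% of all 32851 windows. The GC box GGGCGG, read by Sp1 and its relatives, stood in 14 of 14 synthesis genes and 1 of 4 efflux genes, Abca1. The shares were 49.2% of protein-coding genes and 35.7% of all windows. GC boxes are not marked in the printed stretches, where Hmgcs1, Hsd17b7, Sc5d and Abca1 held 2, 3, 2 and 2. Neither motif was particular to synthesis genes among the members. The CCAAT box stood in 4 of 5 regulators, 2 of 2 transport genes and 2 of 2 genes of storage and oxidation. The GC box stood in 5 of 5, 2 of 2 and 2 of 2 of these. The sterol regulatory element in this strict form stood in 1 of 14 synthesis genes, Hmgcs1, against 1.41% of protein-coding genes and 1.24% of all windows. No matches of different motifs overlapped in the 37 windows of the members. A match of letters is not a site in use, and a window without a match says nothing about the factor.

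Arrays of 1 group correlated with r of 0.967 to 0.984 over all probe sets, and none were identical. Rbpj averaged 7.78 and 7.73 (log2) in p53-/-RBPjk-/- and PDGF+p53-/-RBPjk-/- tumours, against 8.32 in PDGF+p53-/- tumours and 8.01 in control brain. Of the 6 comparisons, that of p53-/-RBPjk-/- with PDGF+p53-/- tumours was called for Rbpj (adjusted p = 0.0191). Pdgfb averaged 5.53, 6.02 and 6.03 in p53-/-RBPjk-/-, PDGF+p53-/-RBPjk-/- and PDGF+p53-/- tumours, against 5.89 in control brain, and was called in no comparison. Whether these probe sets lie in the deleted stretch of Rbpj or read the retroviral PDGF-B is not given in the sources used here. Tumour tissue carried the oligodendrocyte precursor pattern: each of 8 measured markers was higher than in control brain in each tumour type, as were 11 of 11 proliferation markers. All 11 measured neuron markers were lower in each type, 8 of 10 astrocyte markers in each type, and 8, 7 and 8 of 11 mature oligodendrocyte markers in p53-/-RBPjk-/-, PDGF+p53-/-RBPjk-/- and PDGF+p53-/- tumours. Xist and Y-linked genes showed a female pattern in 4 of 4, 1 of 4 and 1 of 4 arrays of these types and in 2 of 4 control arrays. Sex therefore moves with tumour type, and its part in the results is given only as far as fits with a sex term show.

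Transcripts of 11 of the 16 synthesis enzymes were lower in p53-/-RBPjk-/- tumours than in control brain and 0 were higher, with a median log2 difference of -0.73, while the median of all genes was -0.02. Msmo1, Hmgcs1, Fdft1 and Sc5d fell most, by 3.78-fold, 3.29-fold, 3.20-fold and 3.02-fold (4 arrays against 4). Over all 30 members 16 were lower (53.3%) and 3 higher (10%), beside 20.4% of all genes lower and 16.4% higher, or 36.8% called in either direction. A gene was called when limma's moderated test gave an adjusted p (Benjamini-Hochberg over all genes) under 0.05.

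The earliest step measured among the members was that of Hmgcs1, the synthase of HMG-CoA. Its log2 values were 8.48, 8.03, 8.43 and 8.26 in p53-/-RBPjk-/- tumours, 9.53, 9.41, 9.56 and 8.34 in PDGF+p53-/-RBPjk-/- tumours, 8.61, 9.64, 9.77 and 9.54 in PDGF+p53-/- tumours and 9.76, 10.22, 9.99 and 10.11 in control brain. The p53-/-RBPjk-/- arrays lay below every control array and every PDGF+p53-/- array, and the difference from control brain was -1.72 ± 0.26 (log2 ± SE, adjusted p = 3.9e-05; exact permutation p = 0.0286, the smallest that 4 against 4 arrays allow). Of the middle steps, Mvd, the decarboxylase that makes isopentenyl diphosphate, fell by 0.38 (adjusted p = 0.0446), while Mvk, a kinase earlier in the pathway, was at -0.08 (95% confidence interval -0.36 to 0.20). Idi1, the isomerase of isoprenoid units, had 7.23, 6.92, 7.23 and 7.19 in p53-/-RBPjk-/- tumours, 8.60, 7.71, 8.35 and 7.26 in PDGF+p53-/-RBPjk-/- tumours, 7.46, 8.60, 8.51 and 8.33 in PDGF+p53-/- tumours and 7.75, 7.85, 7.77 and 8.38 in control brain. It was lower than control brain in each p53-/-RBPjk-/- array, by 0.79 (adjusted p = 0.0268). A second Idi1 probe set gave -0.93 for the same difference and 0.28 for PDGF+p53-/- minus control brain, beside 0.29 from the probe set used.

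Fdps and Fdft1 make farnesyl diphosphate and squalene. Fdps had 7.97, 7.63, 7.34 and 7.05 in p53-/-RBPjk-/- tumours, 8.52, 8.63, 8.50 and 7.84 in PDGF+p53-/-RBPjk-/- tumours, 7.87, 8.68, 8.58 and 8.54 in PDGF+p53-/- tumours and 8.08, 8.38, 8.32 and 8.62 in control brain. The p53-/-RBPjk-/- arrays did not overlap with control brain, at -0.85 (adjusted p = 0.00478). Fdft1, the squalene synthase and the branch into sterols, had 7.84, 8.43, 8.01 and 7.62 in p53-/-RBPjk-/- tumours, 9.18, 9.09, 9.08 and 8.07 in PDGF+p53-/-RBPjk-/- tumours, 8.59, 9.29, 9.14 and 9.07 in PDGF+p53-/- tumours and 9.59, 10, 9.44 and 9.56 in control brain. Each tumour array lay below each control array, and the p53-/-RBPjk-/- difference was -1.68 ± 0.23 (adjusted p = 1.51e-05), with -1.66 from its second probe set. Sqle, the squalene epoxidase, had 9.06, 8.99, 8.20 and 8.95 in p53-/-RBPjk-/- tumours, 9.83, 9.70, 9.74 and 9.11 in PDGF+p53-/-RBPjk-/- tumours, 9.29, 10.35, 9.99 and 9.78 in PDGF+p53-/- tumours and 9.11, 9.54, 9.49 and 9.73 in control brain. Sqle was lower than in control brain in p53-/-RBPjk-/- tumours, by 0.67 without overlap (adjusted p = 0.0302), while 3 arrays of each PDGF type lay at 9.70 or above.

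After lanosterol, the 3 enzymes of the complex that strips methyl groups from the sterol ring were each lower in p53-/-RBPjk-/- tumours. Msmo1, the methylsterol oxidase, had 8.45, 8.03, 7.60 and 7.27 in p53-/-RBPjk-/- tumours, 9.32, 8.54, 9.38 and 7.93 in PDGF+p53-/-RBPjk-/- tumours, 8.16, 9.36, 9.17 and 8.99 in PDGF+p53-/- tumours and 9.50, 9.79, 9.61 and 10.12 in control brain. It differed from control brain by -1.92 ± 0.32 in p53-/-RBPjk-/- tumours (adjusted p = 0.000104). Hsd17b7, the reductase of the same complex, had 7.32, 7.32, 7.11 and 7.35 in p53-/-RBPjk-/- tumours, 8.39, 8.31, 8.33 and 8.05 in PDGF+p53-/-RBPjk-/- tumours, 7.40, 8.44, 8.21 and 8.14 in PDGF+p53-/- tumours and 7.86, 8.38, 8.12 and 8.41 in control brain. The p53-/-RBPjk-/- arrays lay between 7.11 and 7.35, below each array of control brain and of both other tumour types, with a difference from control brain of -0.92 ± 0.18 (adjusted p = 0.000586). Nsdhl, the dehydrogenase of that complex, encoded on the X chromosome, fell by 0.84 (adjusted p = 0.00141) in p53-/-RBPjk-/- tumours. Tm7sf2, a sterol reductase, fell by 0.56 (adjusted p = 0.0123).

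Sc5d, a desaturase near the end of the pathway, had 7.51, 7.75, 7.38 and 7.17 in p53-/-RBPjk-/- tumours, 8.59, 8.33, 8.30 and 7.83 in PDGF+p53-/-RBPjk-/- tumours, 8.08, 8.84, 8.84 and 8.61 in PDGF+p53-/- tumours and 8.76, 9.07, 9.12 and 9.23 in control brain. All p53-/-RBPjk-/- arrays lay below all other arrays, and the difference from control brain was -1.60 ± 0.19 (adjusted p = 2.48e-06). The other 5 enzymes were not called. Lss, the lanosterol synthase, was at -0.20 (95% confidence interval -0.52 to 0.12), Cyp51, the lanosterol demethylase, at -0.44 (-1.02 to 0.15), Dhcr7, the last reductase, at -0.17 (-0.59 to 0.25), and Ebp, the sterol isomerase, at 0.35 (-0.06 to 0.76). These 4 and Mvk, given above, were called in no comparison.

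**Figure D1:**
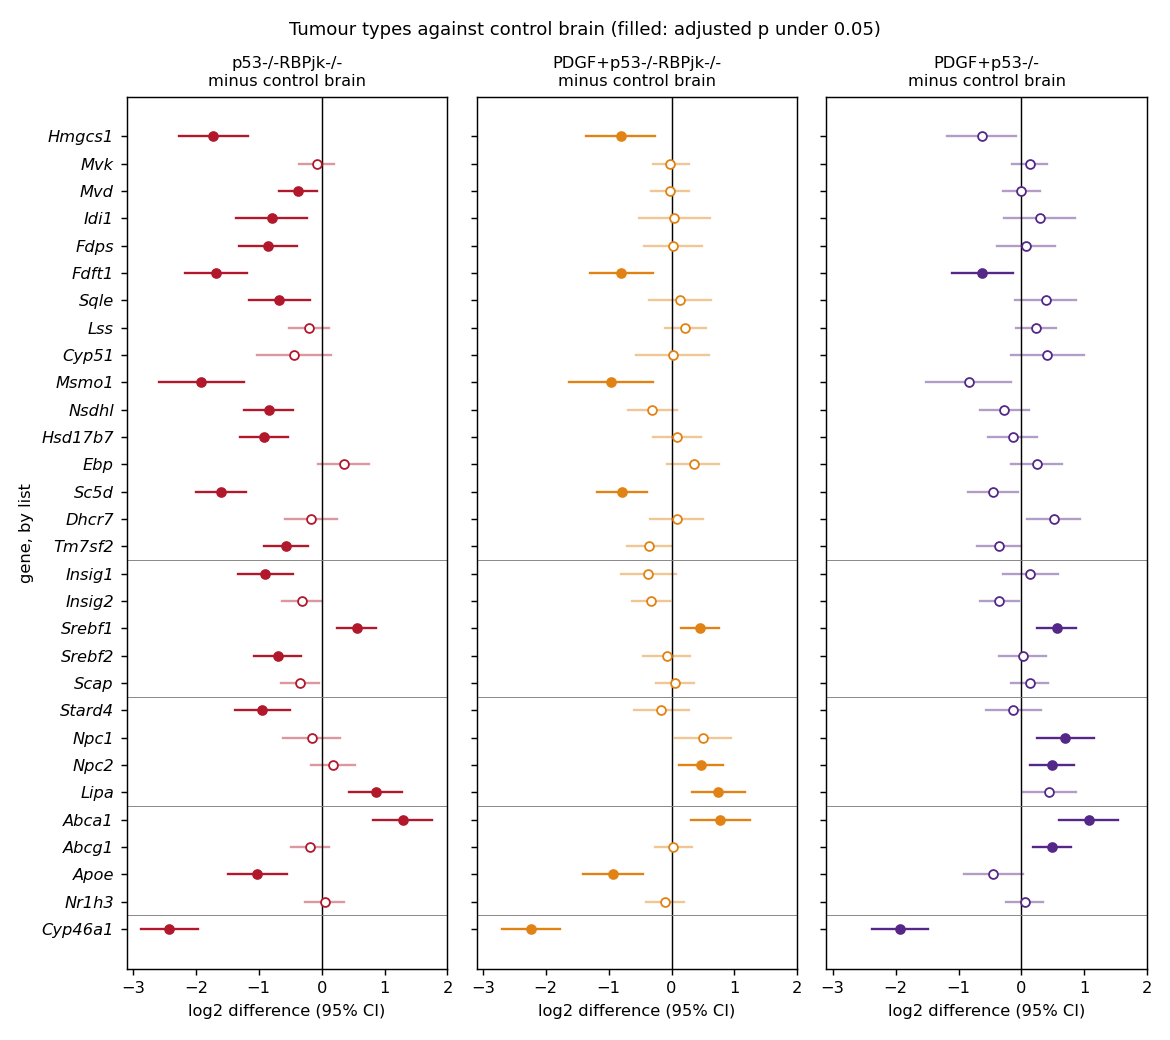
Log2 differences of the 30 measured members between each tumour type and control brain (x axis, with 95% confidence intervals from the fit), ordered down the page by list: synthesis, regulation, transport in the cell, efflux and oxidation. Filled points have an adjusted p under 0.05. In p53-/-RBPjk-/- tumours 11 of 16 synthesis enzymes are filled and left of 0, in PDGF+p53-/-RBPjk-/- tumours 4 and in PDGF+p53-/- tumours 1.

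The regulators moved in opposite directions in p53-/-RBPjk-/- tumours. Srebf2, the SREBP that favours sterol genes, had 7.19, 7.30, 6.97 and 7.45 in p53-/-RBPjk-/- tumours, 7.92, 8.07, 7.97 and 7.45 in PDGF+p53-/-RBPjk-/- tumours, 7.41, 8.25, 8.14 and 7.99 in PDGF+p53-/- tumours and 7.81, 8.09, 8.02 and 7.80 in control brain. It was lower than control brain without overlap, by 0.70 (adjusted p = 0.00404). Insig1, which retains SREBP in the endoplasmic reticulum and is itself switched on by it, had 8.65, 8.48, 7.68 and 8.26 in p53-/-RBPjk-/- tumours, 9.04, 8.90, 8.87 and 8.38 in PDGF+p53-/-RBPjk-/- tumours, 9.07, 9.87, 9.19 and 9.08 in PDGF+p53-/- tumours and 9.15, 9.15, 9.10 and 9.26 in control brain. Its difference from control brain was -0.90 ± 0.21 (adjusted p = 0.0021). Srebf1, whose main products favour fatty acid genes, was higher than control brain in each tumour type, at 6.87 ± 0.30, 6.77 ± 0.16 and 6.88 ± 0.13 (SD, n = 4) in p53-/-RBPjk-/-, PDGF+p53-/-RBPjk-/- and PDGF+p53-/- tumours, against 6.32 ± 0.17 in control brain. The Srebf1 differences were 0.56, 0.46 and 0.56 (adjusted p = 0.00529, 0.0208 and 0.0063). Insig2 was at -0.32 and Scap at -0.35 in p53-/-RBPjk-/- tumours (adjusted p = 0.101 and 0.0687), and neither was called in any comparison.

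Of the 4 genes that carry or release cholesterol inside the cell, 1 fell and 1 rose in p53-/-RBPjk-/- tumours. Stard4, a sterol carrier of the cytosol and an SREBP target, had 6.58, 6.04, 6.34 and 6.41 in p53-/-RBPjk-/- tumours, 7.45, 7.25, 7.25 and 6.57 in PDGF+p53-/-RBPjk-/- tumours, 6.56, 7.37, 7.42 and 7.28 in PDGF+p53-/- tumours and 7.29, 7.60, 7.22 and 7.05 in control brain. It was lower than in control brain, by 0.95 (adjusted p = 0.00134). Lipa, the lysosomal lipase that frees cholesterol from its esters, was higher at 8.48 ± 0.20 against 7.63 ± 0.34 in control brain, a difference of 0.86 (adjusted p = 0.00224). Npc1 and Npc2, which export cholesterol from the lysosome, were at -0.16 (95% confidence interval -0.61 to 0.29) and 0.18 (-0.17 to 0.53).

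Efflux genes did not move together either. Abca1, the pump that loads cholesterol onto apolipoproteins, had 8.48, 9.24, 8.73 and 8.16 in p53-/-RBPjk-/- tumours, 7.98, 8.41, 8.16 and 8.02 in PDGF+p53-/-RBPjk-/- tumours, 8.51, 8.68, 8.0 and 8.55 in PDGF+p53-/- tumours and 7.13, 7.68, 6.95 and 7.71 in control brain. All 12 tumour arrays lay above all control arrays, and in p53-/-RBPjk-/- tumours the difference was 1.29 ± 0.22 (2.44-fold, adjusted p = 0.00014). Apoe, the main apolipoprotein of brain, had 9.43, 9.78, 10.26 and 9.43 in p53-/-RBPjk-/- tumours, 9.50, 9.89, 9.99 and 9.91 in PDGF+p53-/-RBPjk-/- tumours, 10.19, 9.65, 10.55 and 10.81 in PDGF+p53-/- tumours and 10.48, 10.82, 10.89 and 10.80 in control brain. It was lower than control brain in each p53-/-RBPjk-/- array, by 1.02 (2.03-fold, adjusted p = 0.00125). Abcg1 was at -0.19 (adjusted p = 0.341) and Nr1h3, an LXR receptor, at 0.05 (adjusted p = 0.845).

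Cyp46a1, the hydroxylase with which neurons turn cholesterol over, fell most of all members. Its values were 6.07, 5.72, 6.34 and 6.54 in p53-/-RBPjk-/- tumours, 6.30, 6.04, 6.67 and 6.39 in PDGF+p53-/-RBPjk-/- tumours, 6.37, 6.39, 7.14 and 6.73 in PDGF+p53-/- tumours and 8.12, 8.89, 8.85 and 8.48 in control brain. Every tumour array lay below every control array, by 5.35-fold, 4.71-fold and 3.81-fold on average in p53-/-RBPjk-/-, PDGF+p53-/-RBPjk-/- and PDGF+p53-/- tumours (log2 differences of -2.42, -2.23 and -1.93, each ± 0.21; adjusted p = 1.02e-07, 4.25e-07 and 2.39e-06). The neuron marker list averaged 6.15 to 7.54, 6.92 to 8.21 and 7.09 to 8.62 per array in these types, against 10.36 to 10.48 in control brain. In samples of bulk tissue, fewer cells of a type and less RNA per cell cannot be told apart. The part of any cell type in the results on cholesterol genes was not tested.

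For p53-/-RBPjk-/- tumours against control brain, the number of members called stayed between 17 and 20 when any 1 array was left out, and 15 of the 19 calls held under each of 25 other settings. The calls lost were those of Mvd (14 settings, adjusted p up to 0.145), Idi1 (without control replicate 4, 0.0936, without p53-/-RBPjk-/- replicate 2, 0.0712, and with a sex term, 0.0651), Sqle (without control replicate 2, 3 or 4, 0.0654, 0.0592 and 0.0901, without p53-/-RBPjk-/- replicate 3, 0.119, with a sex term, 0.105, and with a second quantile normalization, 0.0673) and Tm7sf2 (without control replicate 3, 0.0539, and with a sex term, 0.0572). Among only the arrays with the Xist pattern, 4 tumour arrays against 2 of control brain, 13 members were called, 12 lower and 1 higher. With these fewer arrays 4889 of all genes were called, in place of 7330. Mvd, Fdps, Sqle, Tm7sf2, Srebf1 and Lipa then lost their calls (adjusted p = 0.116, 0.0516, 0.157, 0.0973, 0.167 and 0.0534).

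**Figure D2:**
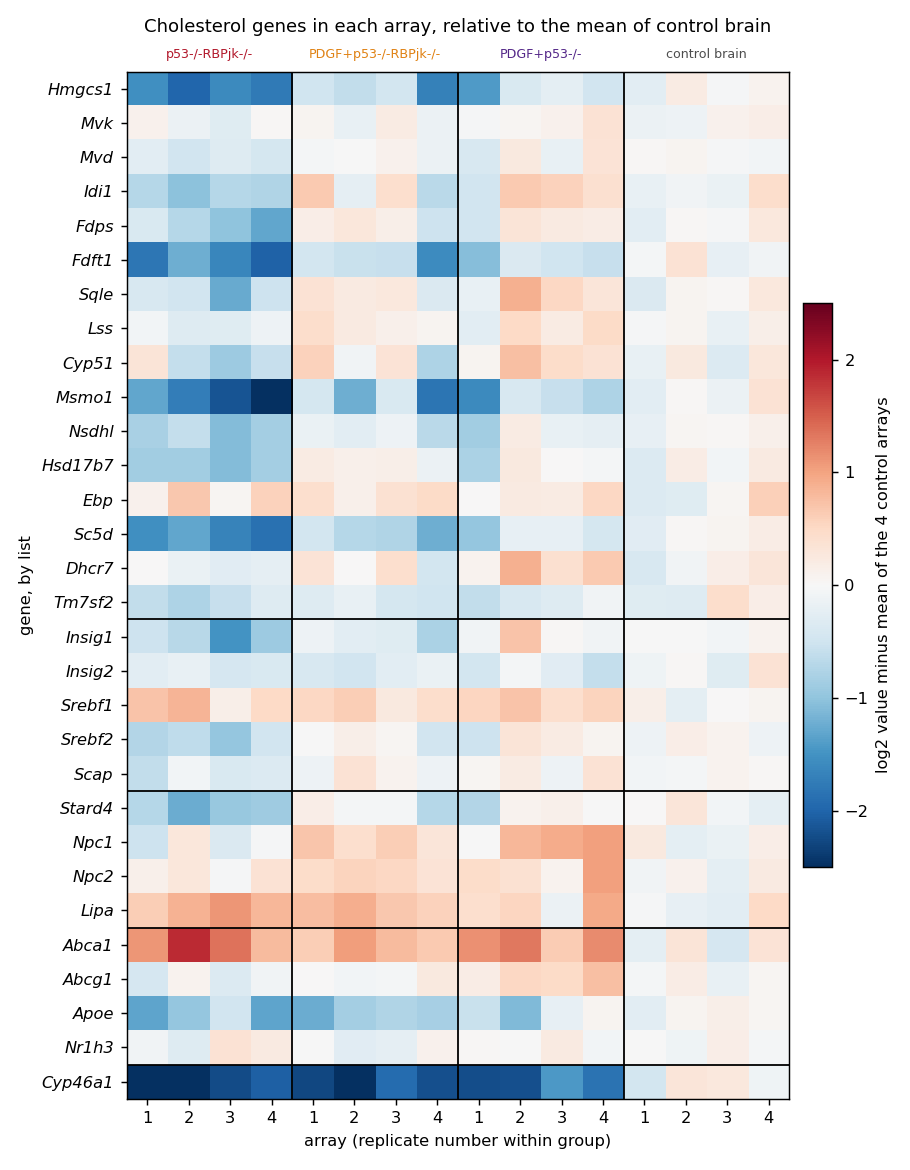
Log2 value of each measured member (rows, by list) in each of the 16 arrays (columns, by group and replicate), minus the mean of the 4 control arrays; blue is lower and red higher than control brain, and values beyond the colour scale take its end colour. Hmgcs1, Fdft1, Msmo1 and Sc5d are blue in all p53-/-RBPjk-/- arrays and darkest among their types in replicate 4 of PDGF+p53-/-RBPjk-/- and replicate 1 of PDGF+p53-/- tumours, Abca1 is red in all 12 tumour arrays and Cyp46a1 blue in all 12.

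In PDGF+p53-/-RBPjk-/- tumours, fewer synthesis genes differed from control brain. Hmgcs1 fell by 0.81, Fdft1 by 0.80, Msmo1 by 0.96 and Sc5d by 0.78 (adjusted p = 0.0224, 0.0126, 0.0266 and 0.00319), without overlap of arrays. The other 12 enzymes were not called, and the median over the 16 was 0.00. Idi1 was at 0.04 (95% confidence interval -0.52 to 0.61), Fdps at 0.03 (-0.43 to 0.49) and Sqle at 0.13 (-0.36 to 0.62). Of all 30 members 6 were lower and 4 higher, or 33.3%, against 33.6% of all genes, so the share called was that of the background (15.7% of all genes were higher and 17.9% lower). With housekeeping centring the median of all genes stood at -0.13, where it was -0.03, and 2 members were higher and 8 lower.

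The members higher in PDGF+p53-/-RBPjk-/- tumours were Lipa, Npc2, Abca1 and Srebf1. Lipa rose by 0.74 (adjusted p = 0.00764), Npc2 by 0.47 (adjusted p = 0.0376) and Abca1 by 0.77 (adjusted p = 0.0106). Npc1 was at 0.50 (adjusted p = 0.0811). Apoe fell by 0.93 (adjusted p = 0.00315), and all 4 arrays, at 9.50 to 9.99, lay below control brain at 10.48 to 10.89. Hmgcs1 lost its call without control replicate 2 (0.0616), control replicate 4 (0.0519) or PDGF+p53-/-RBPjk-/- replicate 4 (0.0864), and Msmo1 without these (0.054, 0.08 and 0.107), without PDGF+p53-/-RBPjk-/- replicate 2 (0.0721) and with array weights (0.0737). Srebf1 lost it without control replicate 2 (0.0741), PDGF+p53-/-RBPjk-/- replicate 1 (0.0516) or 2 (0.0621) and with housekeeping centring (0.0691), and Npc2 without control replicate 1 (0.0898) or 3 (0.118), PDGF+p53-/-RBPjk-/- replicate 1 (0.0689), 2 (0.0843) or 3 (0.0792) and with housekeeping centring (0.0659).

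In PDGF+p53-/- tumours, 5 members were higher than in control brain, and 1 synthesis enzyme was called. Abca1 rose by 1.07 ± 0.22 (2.10-fold, adjusted p = 0.00107), Npc1 by 0.70 (adjusted p = 0.0177), Abcg1, a second sterol pump, by 0.49 (adjusted p = 0.0139), Npc2 by 0.48 (adjusted p = 0.0344) and Srebf1 by 0.56. Fdft1 was lower by 0.62, at the threshold itself (adjusted p = 0.04999), and Cyp46a1 by 1.93. Of the 30 members 5 were higher and 2 lower, or 23.3%, against 31.1% of all genes called (13.6% higher and 17.6% lower). With each array centred on housekeeping genes, which moved the median of all genes to -0.15 where it was -0.04, 4 members were higher and 6 lower, the enzymes Hmgcs1, Msmo1 and Sc5d among the lower. A second quantile normalization gave 6 higher and 1 lower. The remaining synthesis enzymes ranged from -0.83 for Msmo1 (adjusted p = 0.0565) to 0.51 for Dhcr7 (adjusted p = 0.0635), and the median over the 16 was 0.03. Apoe was at -0.45 (adjusted p = 0.146), with arrays at 9.65 to 10.81.

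Npc1 had 7.93, 8.73, 8.08 and 8.41 in p53-/-RBPjk-/- tumours, 9.14, 8.86, 9.06 and 8.74 in PDGF+p53-/-RBPjk-/- tumours, 8.44, 9.28, 9.38 and 9.47 in PDGF+p53-/- tumours and 8.68, 8.21, 8.27 and 8.62 in control brain. In PDGF+p53-/- tumours replicates 2, 3 and 4 lay above all control arrays and replicate 1 among them. Abcg1 had 6.60, 7.11, 6.68 and 6.92 in p53-/-RBPjk-/- tumours, 7.02, 6.94, 6.97 and 7.25 in PDGF+p53-/-RBPjk-/- tumours, 7.20, 7.53, 7.50 and 7.77 in PDGF+p53-/- tumours and 6.97, 7.20, 6.82 and 7.06 in control brain. The PDGF+p53-/- arrays touched the control range at the lower end, at 7.20 beside 7.20. The count of members called was 4 when control replicate 3, or replicate 4 of PDGF+p53-/- tumours, was left out. Calls over all genes were then 5502 and 5613, in place of 6208. Fdft1 lost its call in 13 of 25 settings (adjusted p up to 0.168), Npc1 when any of control replicates 2 (0.0567) and 3 (0.0527) and PDGF+p53-/- replicates 3 (0.05003) and 4 (0.0627) was left out and with array weights (0.0522), Npc2 on leaving out control replicate 1 (0.0821) or 3 (0.109) or PDGF+p53-/- replicate 1 (0.0631) or 4 (0.132), with the 2 groups alone in the fit (0.083) and with housekeeping centring (0.061), and Abcg1 when either control replicate 3 (0.05003) or replicate 4 of PDGF+p53-/- tumours (0.0537) was left out.

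**Figure D3:**
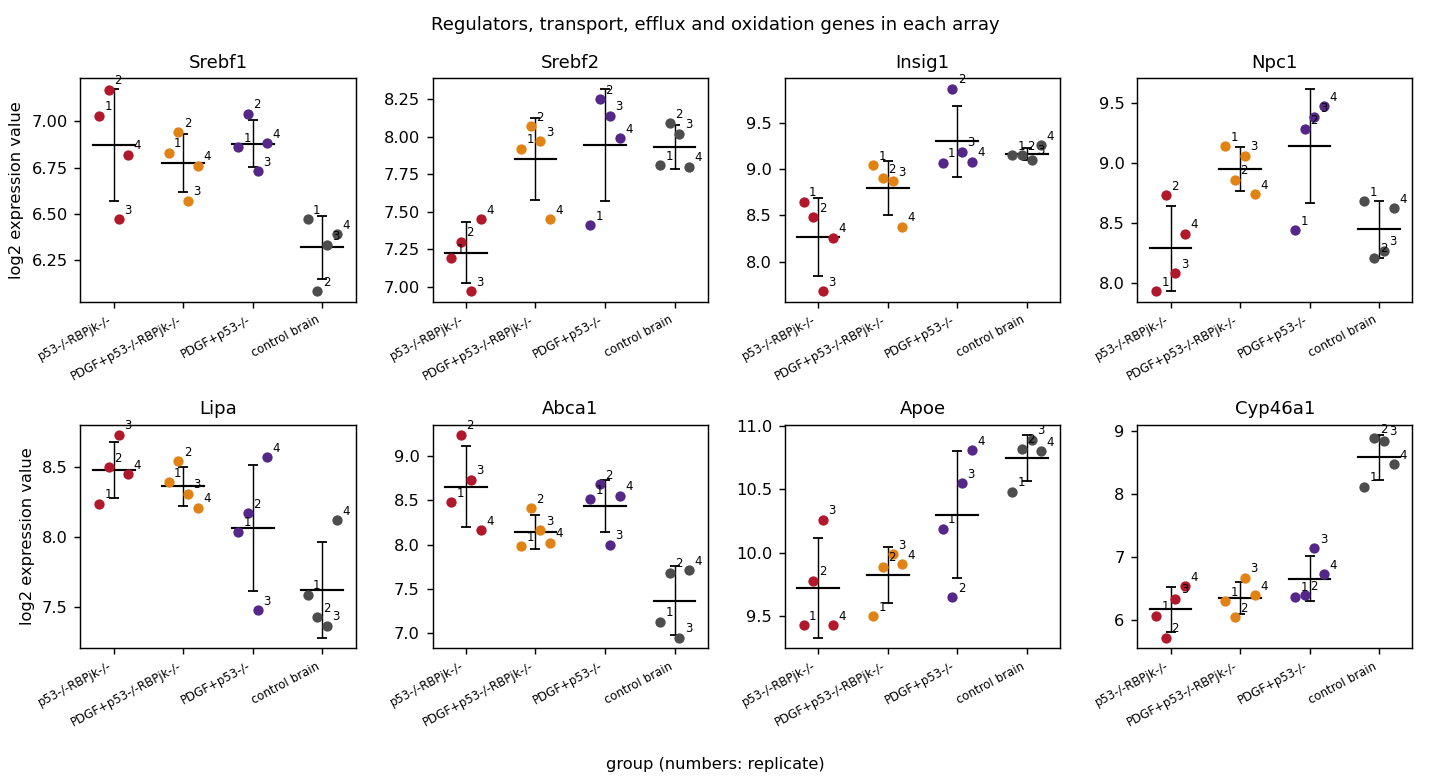
Log2 expression values of 8 regulators, transport, efflux and oxidation genes (y axis) in each array (points, numbered by replicate) of the 4 groups, with group means (lines) and SD (bars, n = 4). Abca1 and Srebf1 are higher and Cyp46a1 is lower in each tumour type than in control brain, while Srebf2 and Insig1 are lower in p53-/-RBPjk-/- tumours.

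In each PDGF type most synthesis enzymes had their lowest value in the same array. PDGF+p53-/- replicate 1 held the lowest value of its group for 16 of 16 enzymes, and PDGF+p53-/-RBPjk-/- replicate 4 for 14 of 16. Control brain showed such a pattern too, with replicate 1 lowest for 11 enzymes and replicate 4 highest for 12. In p53-/-RBPjk-/- tumours replicate 1 was highest for 10 enzymes. The lowest values there were divided among replicates 2, 3 and 4, with 5, 7 and 4 enzymes. The mean over the 16 enzymes was 7.53, 7.40, 7.21 and 7.29 in p53-/-RBPjk-/- tumours, 8.19, 7.94, 8.13 and 7.51 in PDGF+p53-/-RBPjk-/- tumours, 7.58, 8.34, 8.17 and 8.20 in PDGF+p53-/- tumours and 7.91, 8.16, 8.12 and 8.35 in control brain. Thus 1 array of each PDGF type stood next to the p53-/-RBPjk-/- arrays, and the other 3 of each stood within the control range. PDGF+p53-/- replicate 1 lay below every control array for 11 of 16 enzymes and above every control array for 0, whereas replicate 2 lay above every control array for 9 and below for 4. PDGF+p53-/-RBPjk-/- replicate 4 lay below every control array for 12 enzymes, and its other arrays for 5 to 7. The p53-/-RBPjk-/- arrays did so for 11 to 14. None of these counts of array order was made over all genes, so they do not set the enzymes apart from other genes.

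The median SD of a synthesis enzyme within a group was 0.20 in p53-/-RBPjk-/- tumours, 0.32 in PDGF+p53-/-RBPjk-/- tumours, 0.35 in PDGF+p53-/- tumours and 0.25 in control brain, beside 0.20, 0.19, 0.20 and 0.19 over all genes in these groups. In PDGF+p53-/- tumours 15 of 16 enzymes had an SD above the median of all genes. So did 12 of 16 in control brain, 11 in PDGF+p53-/-RBPjk-/- tumours and 7 in p53-/-RBPjk-/- tumours. The regulator Srebf2 and the carrier Stard4 were also lowest in PDGF+p53-/- replicate 1, at 7.41 and 6.56, and in PDGF+p53-/-RBPjk-/- replicate 4, at 7.45 and 6.57. In PDGF+p53-/-RBPjk-/- replicate 4, Insig1 was also lowest of its group, at 8.38.

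The mean over mature oligodendrocyte markers (11 measured of 12) was 6.82 in PDGF+p53-/- replicate 1 and 6.75 in replicate 2, the arrays with the lowest and the highest enzyme mean of that group, against 8.69 in replicate 3 and 7.62 in replicate 4. In PDGF+p53-/-RBPjk-/- replicate 4, low for the enzymes, the mean was 7.84, the highest of its group, and the others were 7.21, 7.43 and 7.36. The p53-/-RBPjk-/- arrays stood at 6.63 to 6.91 and control brain at 8.20 to 9.72. The astrocyte mean (10 measured of 10) was 8.38 in PDGF+p53-/-RBPjk-/- replicate 4, the highest of its group, and 7.71 in PDGF+p53-/- replicate 1, the lowest of its group. The neuron mean was lowest of its group in PDGF+p53-/- replicate 1 as well, at 7.09. The part of these markers in the enzyme values was not tested. By the Xist pattern, PDGF+p53-/- replicate 1 was female and the other 3 male, PDGF+p53-/-RBPjk-/- replicate 4 was male, and the single female array of that type had an enzyme mean of 8.13.

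**Figure D4:**
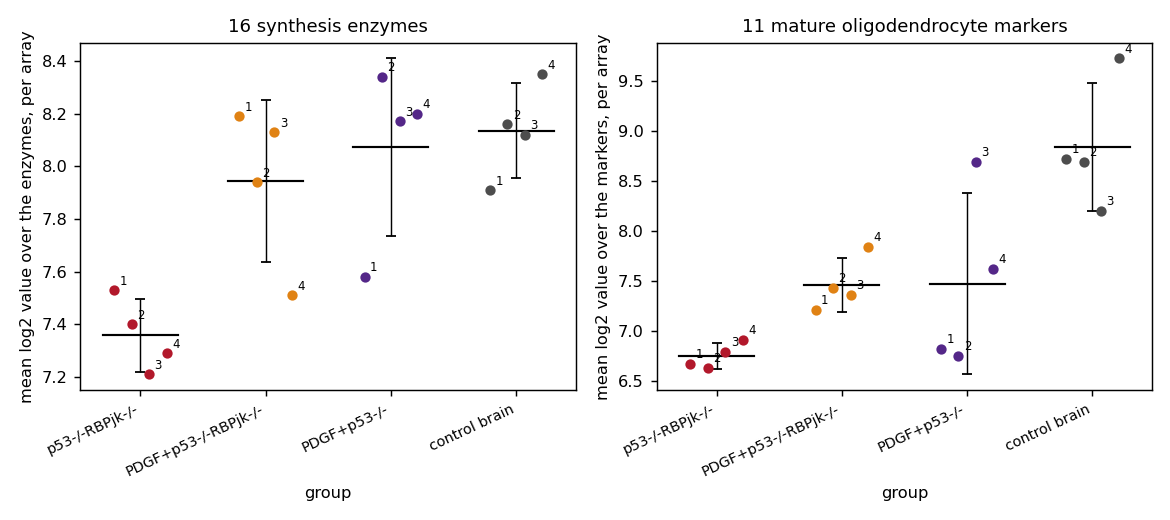
Mean log2 value per array (points, numbered by replicate) over the 16 synthesis enzymes (left) and over 11 mature oligodendrocyte markers (right) in the 4 groups, with group means (lines) and SD (bars, n = 4). Replicate 1 of PDGF+p53-/- (7.58) and replicate 4 of PDGF+p53-/-RBPjk-/- tumours (7.51) sit beside the p53-/-RBPjk-/- arrays (7.21 to 7.53) on the left. On the right replicate 1 of PDGF+p53-/- (6.82) lies within the p53-/-RBPjk-/- range (6.63 to 6.91), and replicate 4 of PDGF+p53-/-RBPjk-/- (7.84) is the highest of its group.

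Between tumour types, the comparison of p53-/-RBPjk-/- with PDGF+p53-/- tumours held the most calls. Of the 30 members 12 were lower (40%) and 0 higher in p53-/-RBPjk-/- tumours, beside 3.61% of all genes lower, 1.93% higher and 5.54% called. Among them were 7 synthesis enzymes: Sc5d fell by 1.14 (adjusted p = 0.0024), Hmgcs1 by 1.09, Idi1 by 1.08, Fdft1 and Sqle by 1.05 each, Fdps by 0.92 and Hsd17b7 by 0.77 (adjusted p = 0.0205, 0.0245, 0.0139, 0.0135, 0.0203 and 0.0196). The regulators Insig1 and Srebf2 fell by 1.04 and 0.72 (adjusted p = 0.00823 and 0.023). Npc1 fell by 0.86, Stard4 by 0.82 and Abcg1 by 0.67 (adjusted p = 0.0246, 0.0275 and 0.0111). The median over the synthesis enzymes was -0.81 and that of all genes 0.01. Fdps, Srebf2, Stard4 and Npc1 had overlapping arrays and an exact permutation p of 0.0571.

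In the same comparison 0 of 11 mature oligodendrocyte markers were called, and 10 of them were negative, with a median of -0.92. Of the neuron markers 2 of 11 were lower and of the astrocyte markers 3 of 10, with medians of -0.86 and -0.63. With a sex term in the fit 1 of the 30 members stayed called, Sc5d, and 183 of all genes were called in place of 1105. The count of members was 4 without PDGF+p53-/- replicate 2, 6 without replicate 3, 6 without replicate 4, 7 without p53-/-RBPjk-/- replicate 3 and 17 without PDGF+p53-/- replicate 1. Of all genes, 553, 702, 859, 727 and 1323 were called in these fits. Sc5d held its call under each of the 25 settings, with an adjusted p of at most 0.0488.

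Sqle and Insig1 stood higher in 1 array of PDGF+p53-/- tumours than anywhere else: replicate 2 had 10.35 and 9.87. The same array was also highest for Cyp51, Dhcr7, Lss, Nsdhl, Fdps, Hsd17b7 and Srebf2, at 9.41, 8.17, 7.27, 9.12, 8.68, 8.44 and 8.25. The 10 members called against control brain in p53-/-RBPjk-/- tumours alone were Mvd, Idi1, Fdps, Sqle, Nsdhl, Hsd17b7, Tm7sf2, Insig1, Srebf2 and Stard4. The direct difference from PDGF+p53-/- tumours was called for 7 of these and not for Mvd, Nsdhl and Tm7sf2. That from PDGF+p53-/-RBPjk-/- tumours was called for 3, which were Fdps, Hsd17b7 and Stard4.

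Set against PDGF+p53-/-RBPjk-/- tumours, with which they share the loss of both floxed genes, p53-/-RBPjk-/- tumours were lower in 5 of 30 members (16.7%) and higher in 0, beside 2.63% of all genes lower, 0.637% higher and 3.27% called. These types also differ in PDGF-B and in how Cre was delivered, which cannot be told apart here, and in sex pattern. Hsd17b7 fell by 1.0 (2.0-fold, adjusted p = 0.00764), with arrays at 7.11 to 7.35 against 8.05 to 8.39. Fdps and Fdft1 fell by 0.88 each (adjusted p = 0.0362 and 0.047), Sc5d by 0.81 (adjusted p = 0.0252) and Stard4 by 0.79 (adjusted p = 0.0462). Fdps, Fdft1 and Stard4 had overlapping arrays. Their highest p53-/-RBPjk-/- values were 7.97, 8.43 and 6.58, and their lowest PDGF+p53-/-RBPjk-/- values 7.84, 8.07 and 6.57. The median over the synthesis enzymes was -0.67, and 15 of 16 had a negative value. Hmgcs1 was at -0.91 (95% confidence interval -1.46 to -0.36, adjusted p = 0.0664).

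Hsd17b7 held its call whichever array was left out, while the other 4 each lost it in some of these fits. The count was 1 without PDGF+p53-/-RBPjk-/- replicate 1, 2 or 3 or p53-/-RBPjk-/- replicate 3 or 4. It was 3 on leaving out p53-/-RBPjk-/- replicate 2, PDGF+p53-/- replicate 4 or any of control replicates 1, 3 and 4, and it was 9 without PDGF+p53-/- replicate 1 and 10 without PDGF+p53-/-RBPjk-/- replicate 4. Of all genes, 651 were called in the main fit, 176 to 396 where the count was 1 and 531 to 647 where it was 3. Where the count was 9 and 10, they numbered 687 and 806. With a sex term 0 members were called by limma (61 of all genes), and Hsd17b7 then had an adjusted p of 0.123.

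Loss of RBPjk within PDGF tumours, the comparison of PDGF+p53-/-RBPjk-/- with PDGF+p53-/- tumours, gave no called member. limma called 0 of 30 members and 0.0201% of all genes (0.0150% higher and 0.00502% lower), and 4 members had an unadjusted p under 0.05. These were Abcg1 at -0.46 (95% confidence interval -0.76 to -0.16), Insig1 at -0.51 (-0.94 to -0.07), Apoe at -0.48 (-0.95 to -0.01) and Dhcr7 at -0.43 (-0.85 to 0.00), with adjusted p of 0.719, 0.891, 0.946 and 0.946. Of these, Insig1 had arrays that did not overlap (exact permutation p = 0.0286), at 8.38 to 9.04 against 9.07 to 9.87. A negative value was found for 26 of 30 members, with a median of -0.13 against 0.02 over all genes. The 95% confidence interval was -0.73 to 0.37 for Hmgcs1, -0.66 to 0.32 for Fdft1 and -0.74 to 0.23 for Sqle. A p that misses the threshold does not show the PDGF types to be alike.

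Of 36 further pathway genes, fixed as a list with earlier results known, 29 were measured. In p53-/-RBPjk-/- tumours 11 were lower than in control brain and 0 higher (37.9%, beside 36.8% of all genes called), in PDGF+p53-/-RBPjk-/- tumours 10 lower and 3 higher (44.8%, beside 33.6%) and in PDGF+p53-/- tumours 9 lower and 2 higher (37.9%, beside 31.1%). Clu, Lpl, Pltp, Nceh1 and Mertk were lower in each type. Clu, an apolipoprotein of astrocytes, was at -2.45, -1.74 and -1.51 in p53-/-RBPjk-/-, PDGF+p53-/-RBPjk-/- and PDGF+p53-/- tumours (adjusted p = 1.07e-05, 0.000449 and 0.00178). Lpl, the lipoprotein lipase, was at -1.65, -1.93 and -1.48 (adjusted p = 2.42e-05, 6.08e-06 and 0.000115), and Pltp, a lipid transfer protein, at -1.35, -1.38 and -1.14 (adjusted p = 3.4e-05, 3.45e-05 and 0.00026). Nceh1, a hydrolase of cholesterol esters, was at -1.81, -1.30 and -1.25 (adjusted p = 4.05e-08, 2.45e-06 and 4.47e-06). Mertk, a receptor with which phagocytes and astrocytes take up debris, was at -2.11, -1.71 and -1.37 (adjusted p = 4.76e-06, 5.87e-05 and 0.000581).

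Of 8 measured genes of uptake and lipoproteins on that list, 0 were higher and 3 lower in p53-/-RBPjk-/- tumours, and 2 were higher and 3 lower in each PDGF type, with median log2 differences of -0.39 in p53-/-RBPjk-/-, -0.17 in PDGF+p53-/-RBPjk-/- and -0.27 in PDGF+p53-/- tumours. Lrp1, a large receptor for Apoe particles, rose by 0.59 and 0.66 in PDGF+p53-/-RBPjk-/- and PDGF+p53-/- tumours (adjusted p = 0.00287 and 0.00134) and was at 0.10 in p53-/-RBPjk-/- tumours (adjusted p = 0.636). Scarb1, a receptor for high-density lipoprotein, rose by 0.70 and 0.66 (adjusted p = 0.0125 and 0.0189) and was at 0.16 (adjusted p = 0.589). Directly compared, Lrp1 was lower in p53-/-RBPjk-/- than in PDGF+p53-/- tumours, by 0.56 (adjusted p = 0.0249). Vldlr, another receptor of Apoe, was called in no type. Gramd1b, which carries cholesterol from the plasma membrane to the endoplasmic reticulum, was at -1.56, -1.27 and -0.93 in p53-/-RBPjk-/-, PDGF+p53-/-RBPjk-/- and PDGF+p53-/- tumours (adjusted p = 1.09e-06, 1.37e-05 and 0.000374). Abca2 and Abcg4, further transporters, were each at -1.03 in p53-/-RBPjk-/- tumours (adjusted p = 1.6e-05 and 1.37e-05). Ch25h, a hydroxylase of cholesterol, rose by 1.27 in PDGF+p53-/-RBPjk-/- tumours (adjusted p = 0.00179). Pmvk, the kinase between Mvk and Mvd in the pathway, fell by 0.68 in p53-/-RBPjk-/- tumours (adjusted p = 0.000264).

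Lipa, Npc2 and Abca1 are also expressed by macrophages. Of 8 measured of 9 macrophage and monocyte markers, 4, 3 and 2 were higher and 0, 1 and 1 lower than in control brain in p53-/-RBPjk-/-, PDGF+p53-/-RBPjk-/- and PDGF+p53-/- tumours, with means per array of 7.15 to 8.39, 6.86 to 7.43 and 6.02 to 7.86, against 6.20 to 6.33 in control brain. In PDGF+p53-/- replicate 3 the marker mean was 6.02, below control brain, and Lipa, Npc2 and Abca1 were lowest of that group there, at 7.48, 8.99 and 8.0, while Abca1 still lay above each control array. Replicate 4 had the highest marker mean, 7.86, and the highest Lipa and Npc2, 8.57 and 9.93, while Abca1 was highest in replicate 2, at 8.68. In p53-/-RBPjk-/- replicate 3, with the highest marker mean of that group (8.39), Lipa was highest of the group, at 8.73, and Npc2 lowest, at 8.87. Of 7 measured of 8 microglia markers, 0 were higher than in control brain in any tumour type. In p53-/-RBPjk-/-, PDGF+p53-/-RBPjk-/- and PDGF+p53-/- tumours 6, 1 and 1 were lower, with median differences of -0.97, -0.35 and -0.28. Their means per array were 5.95 to 6.61, 6.60 to 6.90 and 6.40 to 7.09, against 7.07 to 7.28 in control brain. No marker value is at 0 on this scale, and the markers' part in these results was not tested.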

How the data were processed

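RNA of 16 mouse brain samples was measured on Affymetrix arrays. The deposited table holds log2 expression values per probe set, made by the authors before deposit. Per the submitters' processing notes, they used oligo and its RMA method. RMA corrects background, sets all arrays to one distribution and summarises the probes of a set, so a change in total RNA cannot be seen. For versions and annotation build, no entry was found: not given in the sources used here. Values ran from 1.2 to 14.1 with array medians of 5.97 to 6.06.

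Of 35556 probe sets, 21789 had 1 gene symbol in the platform annotation, 1621 had several and 12146 had none. Symbols were checked against RefSeq (GRCm38.p6), where 21701 probe sets matched and 2 symbols were updated. The probe set with the highest mean over all arrays stood for a gene, giving 19936 genes. Acat2, Nr1h2 and Soat1 are not analysed here.

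The 4 groups came from the sample labels. One limma fit (limma 3.58.1, R 4.3.3) of 4 group means had 12 residual and 5.33 prior degrees of freedom. Adjusted p-values are Benjamini-Hochberg values from that two-sided moderated test over all genes, called under 0.05. Standard errors and 95% confidence intervals come from the same fit, and exact two-sided permutation tests used 4 against 4 arrays. The fit was tested on simulated data with known changes. With 4 arrays a group, the number of arrays limits the precision, and arrays give no counts.

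Members and gene lists were chosen with earlier results of these data known. Array values are printed for members called with a log2 difference of at least 1 or called between tumour types. Further pathway genes are named when called with a difference of at least 1; Lrp1, Scarb1, Vldlr and Pmvk were named after their values were seen. Promoters were to be shown only where the sterol regulatory element matched, which held for 1 called enzyme, so the choice stated with them replaced that rule. The Python tables used pandas 2.3.3 and numpy 2.4.6, and the plots matplotlib 3.10.9.

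The 25 alternatives were the mean of probe sets, no genes below the 25th percentile, trended robust variances, 2 groups only, a replicate block, centring on 10 housekeeping genes, a second quantile normalization, a sex term, array weights and 16 fits leaving out 1 array. A fit of the Xist-pattern arrays alone was added after the data were seen. Arrays with the same replicate number did not deviate together: 7 of 24 pairs had a correlation of residuals over 0.1 (range -0.12 to 0.18), so the numbers were not used as pairs.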

Additional observations from a re-analysis of the deposited data

Results flagged for a closer look

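Some arrays stood far from the other 3 of their group for single genes, with a gap, as a share of the group's range, past the 95% critical value of Dixon's test. This was so in 9 of 120 gene and group combinations, where chance gives about 1 in 20. In PDGF+p53-/-RBPjk-/- tumours, replicate 4 was low for Hmgcs1 (8.34 against 9.41 to 9.56 in the others), Fdps (7.84 against 8.50 to 8.63) and Fdft1 (8.07 against 9.08 to 9.18), all log2 values. In PDGF+p53-/- tumours, replicate 1 was low for Stard4 (6.56 against 7.28 to 7.42) and replicate 2 high for Insig1 (9.87 against 9.07 to 9.19). In p53-/-RBPjk-/- tumours, replicate 3 was low for Sqle (8.20 against 8.95 to 9.06) and Hsd17b7 (7.11 against 7.32 to 7.35), and replicate 2 for Idi1 (6.92 against 7.19 to 7.23). Control replicate 4 was high for Idi1 (8.38 against 7.75 to 7.85).

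Differences between tumour types passed the test for 17 gene and comparison combinations, all lower in p53-/-RBPjk-/- tumours. Against PDGF+p53-/-RBPjk-/- tumours the log2 differences were -0.88 for Fdps, -0.88 for Fdft1, -1.0 for Hsd17b7, -0.81 for Sc5d and -0.79 for Stard4. Against PDGF+p53-/- tumours they were -1.09 for Hmgcs1, -1.08 for Idi1, -0.92 for Fdps, -1.05 for Fdft1, -1.05 for Sqle, -0.77 for Hsd17b7 and -1.14 for Sc5d. In the same comparison they were -1.04 for Insig1, -0.72 for Srebf2, -0.82 for Stard4, -0.86 for Npc1 and -0.67 for Abcg1. With a sex term in the fit, the Sc5d difference from PDGF+p53-/- tumours was the only 1 of the 17 still called.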

How the results depend on the processing

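Over all results and settings, no log2 difference past the threshold changed sign. For p53-/-RBPjk-/- tumours minus control brain, 19 members were called, and 17 to 20 when 1 array was left out. For PDGF+p53-/-RBPjk-/- minus control brain the count was 10, with 7 to 11, and for PDGF+p53-/- minus control brain 7, with 4 to 10. Without 1 array, the calls over all genes ran from 6728 to 7403, 5851 to 6758 and 5262 to 6287 in these comparisons. In the main fit they were 7330, 6702 and 6208. The comparisons between tumour types moved more. Counts for p53-/-RBPjk-/- minus PDGF+p53-/-RBPjk-/- tumours were 5 and, without 1 array, 1 to 10. They were 2 with only these groups in the fit, 1 with housekeeping centring, 3 after a second quantile normalization, 0 with a sex term and 10 with array weights. The calls over all genes moved as well, from 651 to 395, 441, 559, 61 and 1198 in these settings. Without 1 array they ran from 176 to 806. Counts for p53-/-RBPjk-/- minus PDGF+p53-/- tumours were 12 and, without 1 array, 4 to 17. They were 2 with only these groups, 1 with a sex term and 6 with array weights. Over all genes the calls went from 1105 to 289, 183 and 773 in these settings, and to 553 to 1323 without 1 array. The cause of these shifts was not tested, except that fewer arrays enter a fit of 2 groups. PDGF+p53-/-RBPjk-/- minus PDGF+p53-/- tumours gave 0 calls in every fit. All p53-/-RBPjk-/- arrays are female by Xist, so a sex term can compare sexes only within the other groups.

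With the replicate block the counts were 18, 10 and 7 against control brain in p53-/-RBPjk-/-, PDGF+p53-/-RBPjk-/- and PDGF+p53-/- tumours, and 4, 12 and 0 in p53-/-RBPjk-/- minus PDGF+p53-/-RBPjk-/-, p53-/-RBPjk-/- minus PDGF+p53-/- and PDGF+p53-/-RBPjk-/- minus PDGF+p53-/- tumours. Over all genes the calls in these comparisons were 7321, 6641 and 6232, and 682, 1150 and 2. Mvd in p53-/-RBPjk-/- minus control brain (adjusted p = 0.0638) and Stard4 in p53-/-RBPjk-/- minus PDGF+p53-/-RBPjk-/- tumours (0.0614) were no longer called under the block.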
